A study of Mus musculus with 16 samples.

Results

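The E2F transcription factor genes are the 8 mouse genes E2f1 to E2f8, taken by name from the 21887 protein-coding genes that RefSeq annotates on GRCm38.p6, the mm10 build. They were described by the occupancy of one family member, E2f4, and by 2 histone marks of active chromatin, H3K4me2 and H3K27ac, in regenerating mouse liver, measured by chromatin immunoprecipitation and sequencing (ChIP-seq). Mice on a mixed C57/B6 and 129 background, at postnatal day 90, had part of the liver removed, and the tissue was collected 40 h later. All mice carried the floxed allele Arid1a Fl/Fl. The WT group had no Cre, and the KO group also carried Alb-cre, in which the albumin promoter drives the Cre recombinase in hepatocytes, so that other liver cells are expected to keep the gene. Arid1a belongs to the SWI/SNF complex, which remodels chromatin. Of 16 samples, 8 were immunoprecipitations with a deposited peak list each, and 8 were inputs that were not analysed here. There were 2 E2f4 libraries in each genotype, and 1 for either histone mark. Nothing in the labels ties the replicates to different animals, so any p-value measures only the spread between these libraries, which may be technical.

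E2F proteins bind promoters of genes for DNA replication and cell division and set their activity over the cell cycle. E2f1, E2f2 and E2f3 are known as activators. E2f4 and E2f5 act mainly as repressors in complexes with the pocket proteins, relatives of the retinoblastoma protein. E2f6 works without pocket proteins and partners with Polycomb proteins, and E2f7 and E2f8 are atypical members that bind DNA without a dimerisation partner and repress. Several E2F genes are themselves E2F targets. In liver, E2F genes are best known for their part in the cell cycle entry of hepatocytes after partial hepatectomy and in the polyploidy of these cells.

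The libraries differed in how much was called. WT replicates 1 and 2 had 1791 and 1058 E2f4 peaks, and KO replicates 1 and 2 had 287 and 683, so KO replicate 1 was the shortest list. The lists hold no read counts, so depth is unknown, and a gene without a peak was not called rather than shown to be unbound. H3K4me2 had 66832 regions in WT and 73042 in KO, and H3K27ac had 63321 in WT and 54652 in KO. All 8 hepatocyte markers carried both marks in both genotypes. At Arid1a itself, H3K4me2 covered 6378 bp in WT and 6374 bp in KO within 5 kb of the gene start. These lists do not test the deletion, since they hold no coverage over the deleted part of the gene.

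Where E2f4 summits fell relative to short promoter words is shown on 5 promoters, printed 5′ to 3′ on the gene's strand. Each spans 250 bases before to 50 after a RefSeq start in GRCm38.p6. Capitals mark matches, on either strand, to a strict E2F motif (TTTCCCGC, TTTGCCGC, TTTGGCGC, TTTCGCGC or TTCCCGCC) or to a short E2F core (TCCCGC or TGGCGC). The strict words can overlap each other and the short core. E2f3 is shown because its peak was among the strongest in every library, E2f2, E2f7 and E2f8 because a summit fell inside the window in at least 1 library, and E2f6 because no summit was called there.
E2f3, chr13:29986014-29986313, minus strand: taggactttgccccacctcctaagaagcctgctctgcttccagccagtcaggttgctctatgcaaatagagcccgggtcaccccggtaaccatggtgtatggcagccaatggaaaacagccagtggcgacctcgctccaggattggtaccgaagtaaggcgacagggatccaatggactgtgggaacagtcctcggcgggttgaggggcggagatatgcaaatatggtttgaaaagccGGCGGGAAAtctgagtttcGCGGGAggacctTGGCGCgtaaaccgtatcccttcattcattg
E2f2, chr4:136172024-136172323, plus strand: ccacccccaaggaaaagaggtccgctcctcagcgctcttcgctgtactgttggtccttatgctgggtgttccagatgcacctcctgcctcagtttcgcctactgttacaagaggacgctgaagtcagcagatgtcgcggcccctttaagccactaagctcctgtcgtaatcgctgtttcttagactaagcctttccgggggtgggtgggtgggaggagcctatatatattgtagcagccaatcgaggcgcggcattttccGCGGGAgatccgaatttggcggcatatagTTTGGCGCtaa
E2f7, chr10:110745189-110745488, plus strand: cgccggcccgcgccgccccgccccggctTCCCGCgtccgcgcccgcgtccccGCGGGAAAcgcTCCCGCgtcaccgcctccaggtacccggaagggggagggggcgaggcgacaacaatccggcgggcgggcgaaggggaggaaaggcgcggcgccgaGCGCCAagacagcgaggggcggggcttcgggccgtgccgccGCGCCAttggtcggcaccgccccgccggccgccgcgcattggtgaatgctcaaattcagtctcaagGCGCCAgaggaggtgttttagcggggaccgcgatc
E2f8, chr7:48881547-48881846, minus strand: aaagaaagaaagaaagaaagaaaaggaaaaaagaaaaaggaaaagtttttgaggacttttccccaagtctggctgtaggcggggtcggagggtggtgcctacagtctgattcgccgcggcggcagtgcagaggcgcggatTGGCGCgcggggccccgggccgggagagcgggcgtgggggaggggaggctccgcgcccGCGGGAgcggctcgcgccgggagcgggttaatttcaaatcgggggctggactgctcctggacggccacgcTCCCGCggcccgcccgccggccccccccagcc
E2f6, chr12:16810715-16811014, plus strand: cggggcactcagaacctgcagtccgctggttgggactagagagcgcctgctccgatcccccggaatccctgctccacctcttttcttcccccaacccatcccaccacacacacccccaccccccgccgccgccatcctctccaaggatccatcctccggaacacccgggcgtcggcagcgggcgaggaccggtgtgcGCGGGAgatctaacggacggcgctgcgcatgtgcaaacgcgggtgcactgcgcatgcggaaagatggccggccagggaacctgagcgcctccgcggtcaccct

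The E2f3 promoter held 2 overlapping strict matches, GGCGGGAA and GCGGGAAA, from base -12 to base -4 of the start. E2f2 held 1 strict match, TTTGGCGC, at bases 39 to 46 after the start. E2f7 held 1 strict match, GCGGGAAA, at bases -198 to -191, with 6 short cores in the window. E2f8 held 3 short cores and no strict match, and E2f6 held 1 short core and no strict match. Of 32851 promoters in the table, 3.89% held a strict match and 27.7% a short core. Of the 564 promoters with a summit inside the window in both WT libraries, 34.9% held a strict match and 76.4% a short core, at a median GC content of 61.7% against 52.7% over all promoters. The table held 8 promoters for 6 of the 8 genes, with no entry for E2f4 and E2f5. The E2f1 promoter, at chr2:154569377-154569676, had a GC content of 77.3% and no match to either motif, and its summits lay outside this window. The window at the second RefSeq start of E2f3, chr13:29984342-29984641, held 2 short cores and no summit.

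E2f4 was called at 6 of the 8 E2F genes in at least 1 WT library, where a gene counts when a summit lay inside it or within 1 kb of either end. Over all genes this share was 9.01%. Summits in both WT libraries were found at E2f2, E2f3, E2f5 and E2f8, 4 of 8 against 4.25% of all genes and against 6.14% of the 14705 genes with H3K4me2 within 1 kb of the start, a group to which all 8 belonged. A summit in at least 1 KO library was found at E2f1, E2f2, E2f3 and E2f8, 4 of 8 against 3.66%. E2f3 and E2f8 had a summit in all 4 libraries, 2 of 8 against 1.2%. By library, 6 members were called in WT replicate 1 and 4 in WT replicate 2, where 7.98% and 5.29% of all genes were called. In KO replicates 1 and 2, 2 and 4 members were called, against 1.31% and 3.57% of all genes. Members are related genes and not replicates, so these counts have no test. Without KO replicate 2, 2 members had a KO summit, and without WT replicate 2, 6 had a summit in the remaining WT library.

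**Figure D1:**
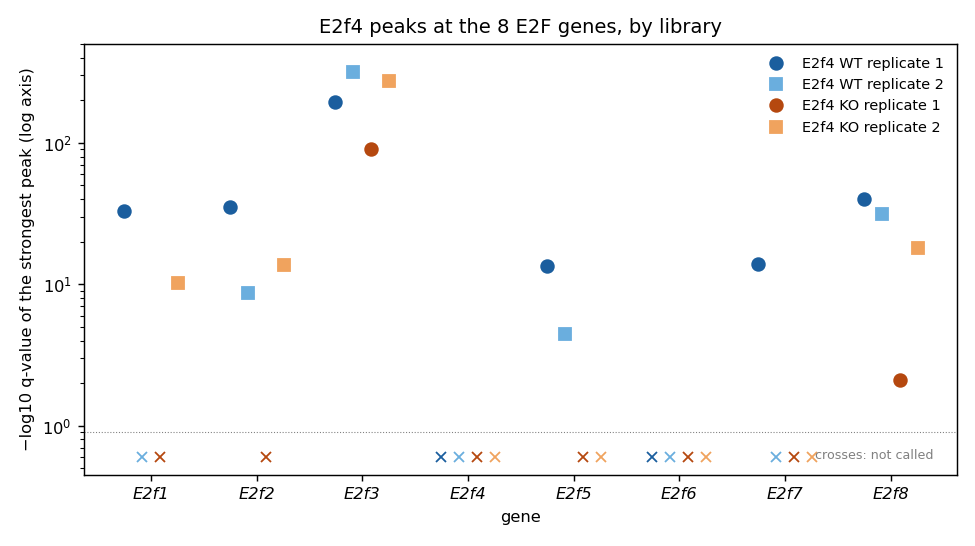
E2f4 peaks at the 8 E2F genes. The vertical axis is the −log10 q-value that the authors' peak caller gave the strongest peak inside the gene or within 1 kb of an end, on a log axis, with 1 point per library and crosses for libraries without a call. E2f3 lies between 91.06 and 315.60 in all 4 libraries, above every other member, and E2f4 and E2f6 have crosses only.

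Among the activators, E2f3 (chr13:29906575-29986064, minus strand, 79490 bp) carried one of the strongest E2f4 peaks of each list. By −log10 q-value its peak ranked 5 in both WT libraries, 4 in KO replicate 1 and 2 in KO replicate 2. The authors' fold enrichment was 56.0 and 74.2 in the WT libraries and 27.1 and 68.6 in the KO libraries, values that depend on each list's own depth and enrichment. The genotypes overlapped in fold and −log10 q-value, with KO replicate 1 the lowest of the 4. Peaks were 541 and 343 bp wide in WT and 302 and 296 bp wide in KO. Their summits lay at -14 and -13 bp from the RefSeq start in WT and at -33 and -23 bp in KO (negative is upstream), so that all 4 fell within 20 bp of each other. The summits were 2 and 1 bp from the strict match GGCGGGAA in WT and 21 and 11 bp from it in KO. A cell cycle homology region, TTTGAA, a short promoter word of many mitotic genes searched on both strands, lay at bases -23 to -18, and the summit of KO replicate 2 fell inside it. This word occurred in 17.9% of all promoters and in 34.8% of those with a summit in both WT libraries.

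E2f2 (chr4:136172274-136196057, plus strand, 23784 bp) had a summit in 3 libraries. The peak ranked 267 of 1791 in WT replicate 1, 760 of 1058 in WT replicate 2 and 411 of 683 in KO replicate 2, with −log10 q-values of 34.97, 8.70 and 13.77. WT replicate 1 stood above the other 2, and the KO value lay between the WT values. Summits lay 177, 26 and 79 bp downstream of the start in the same order. They were 131, 13 and 33 bp from the strict match TTTGGCGC. In KO replicate 1 no peak was called, and the nearest summit was 1661.2 kb away.

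E2f1 (chr2:154559400-154569892, minus strand, 10493 bp) was called in 1 library of each genotype. The peak ranked 284 of 1791 in WT replicate 1, with a −log10 q-value of 32.74, and 492 of 683 in KO replicate 2, with 10.17. Both summits lay near the outer end of the gene, at -68 and 14 bp from it, which is -534 and -452 bp from the RefSeq start in the promoter table. In WT replicate 2 and KO replicate 1 the nearest summits were 1213.4 and 2709 kb away.

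E2f5, a pocket-protein partner on chromosome 3 (chr3:14578602-14606309, 27708 bp), was the member called in both WT but neither KO library, 1 of 8 against 1.25% of all genes. Among genes called in both WT libraries, it was 1 of 4 members, beside 273 of 930 genes, so the pattern is common among such genes. Its peaks ranked 566 of 1791 in WT replicate 1 and 959 of 1058 in WT replicate 2, with −log10 q-values of 13.44 and 4.43. The summits lay 60 and 70 bp inside the marked gene end, within 10 bp of each other. The nearest summit in either KO list was 12547.5 kb away. The second value was near the weak end of its list, and no call of this pattern was left among the members when peaks had to reach a −log10 q-value of 5.

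At E2f4 itself (chr8:105297663-105305370, 7708 bp), whose protein was the one precipitated, no summit was called in any library. The nearest summits lay 42.7 kb away in both WT libraries and in KO replicate 2, and 9664.1 kb away in KO replicate 1. E2f6 (chr12:16810909-16826752, plus strand, 15844 bp) also had none, its nearest summit being 995.8 kb away in WT replicate 1.

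The atypical members differed from each other. E2f8 (chr7:48866429-48882073, minus strand, 15645 bp) had a summit in all 4 libraries, at rank 221 in WT replicate 1, 323 in WT replicate 2, 271 of 287 in KO replicate 1 and 342 of 683 in KO replicate 2. Its −log10 q-values were 40.41 and 31.65 in WT and 2.12 and 18.03 in KO, so both KO values lay below both WT values, with KO replicate 1 near the end of its list, on a scale that moves with each list's depth and enrichment. The main summits fell 283 to 388 bp downstream of the RefSeq start in all 4 libraries. WT replicate 2 and KO replicate 2 each had a second, weaker summit, at -106 and -96 bp from the start, 0 and 9 bp from the short core TGGCGC. A long noncoding RNA gene, Gm2788 (chr7:48881300-48886608), overlaps the start of E2f8 by 774 bp. The second summits and the main summit of KO replicate 1 lay inside it, and the other main summits lay just outside. Another such gene, LOC115486422 (chr7:48878041-48880624), lies within E2f8. With the 1 kb window, peaks here cannot be assigned to E2f8 alone. E2f7 (chr10:110745439-110787384, plus strand, 41946 bp) was called in WT replicate 1 alone, at rank 553 of 1791 and a −log10 q-value of 13.94. That summit lay 1 bp past the start base, 14 bp from the nearest short core GCGCCA and 192 bp from the strict match.

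The order of the members within a list was E2f3, E2f8, E2f2 in each of the 3 libraries that called all of them, with E2f1 below E2f2 in both libraries that called both. E2f3 was set apart from the rest, its rank being 0.279% to 1.39% of the way down a list. E2f8 ranged from 12.3% to 94.4% and E2f2 from 14.9% to 71.8%, so these neighbours in the order overlapped. E2f5 and E2f7 differed little in the only list that held both, at 31.6% and 30.9%.

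Between genotypes, presence of a summit was compared with an exact two-sided permutation test over the 6 assignments of the 4 libraries. The smallest p this design allows is 0.333, so it cannot reach 0.05. E2f5 gave an exact p of 0.333, and the other 7 members gave an exact p of 1. Over all 21887 genes the smallest Benjamini-Hochberg adjusted p of this exact test was 1, and 0 genes had an unadjusted exact p under 0.05. A difference in E2f4 occupancy at any E2F gene was therefore not detectable with these libraries.

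All E2f4 summits at the E2F genes lay in H3K4me2 regions of both genotypes. All also lay in H3K27ac regions of both genotypes except at E2f5, where the summit of WT replicate 1 lay in neither H3K27ac list and that of WT replicate 2 lay in the WT list alone. The H3K27ac region at E2f5 began 66 bp inside the gene in WT and 74 bp inside it in KO, next to the summits.

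**Figure D2:**
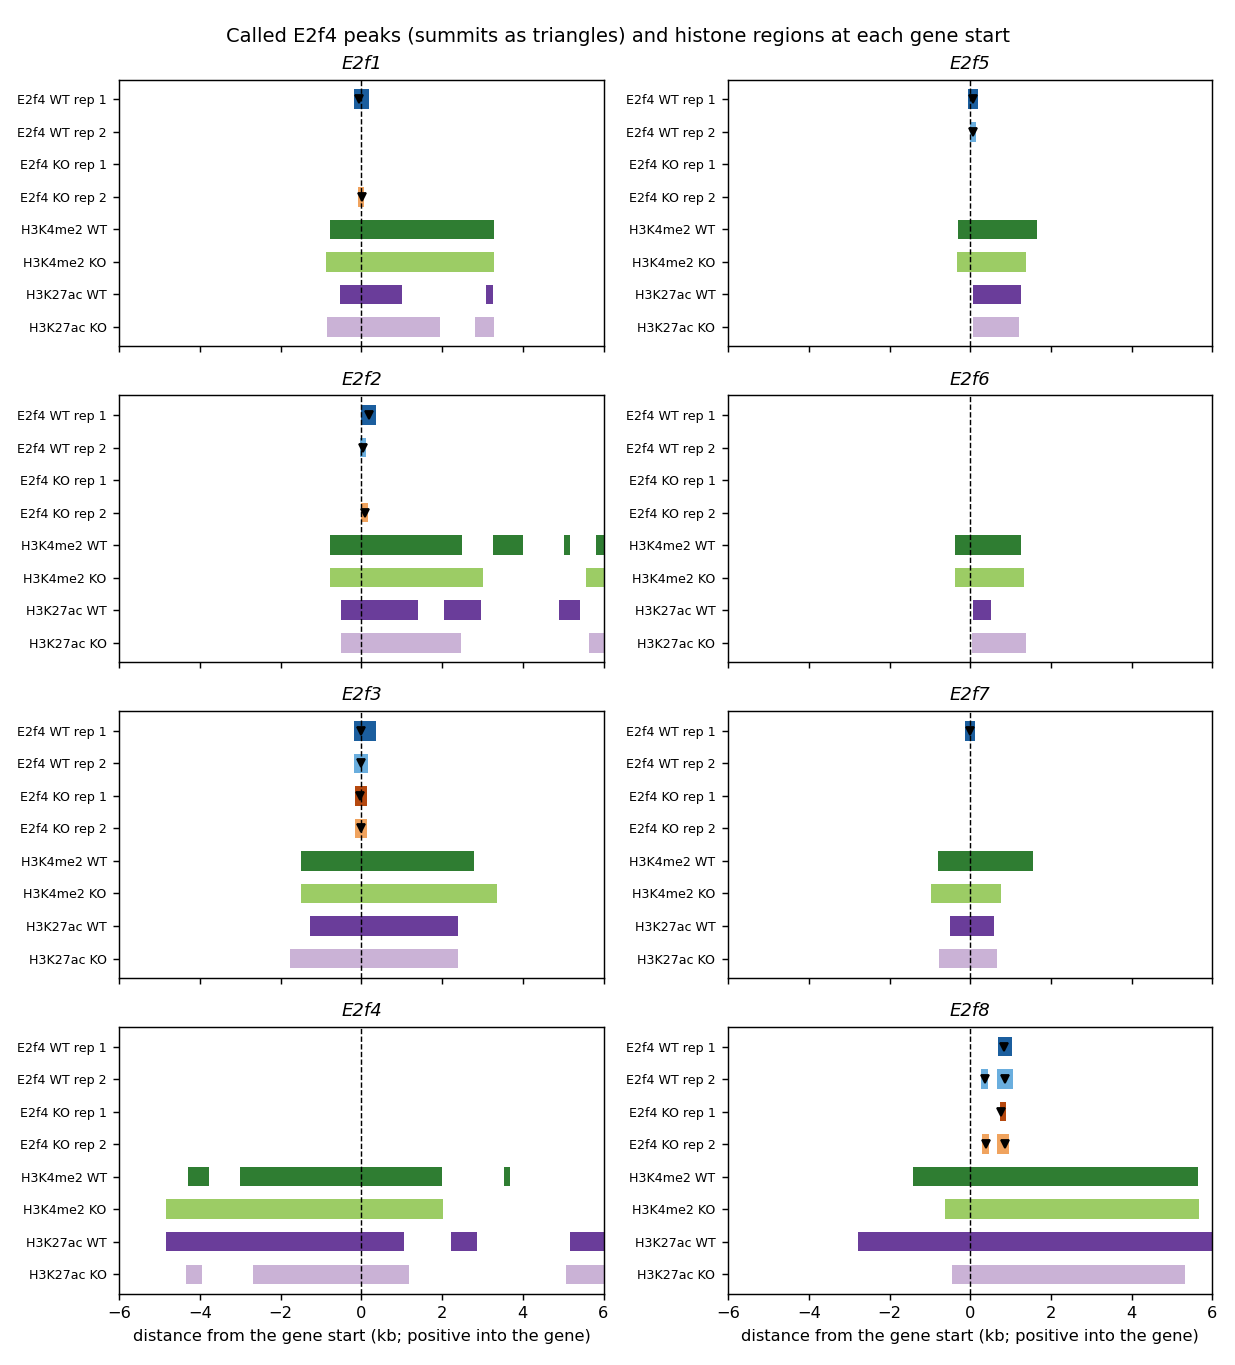
Called regions around the start of each E2F gene. The horizontal axis is the distance from the gene start in kb, positive into the gene, each row is 1 library, bars are called regions and triangles are E2f4 summits. The gene start here is the outer gene end, and summits sit within 0.2 kb of it except at E2f8. From the RefSeq start, the E2f1 summits lie at -534 and -452 bp and the main E2f8 summits at 283 to 388 bp. E2f4 and E2f6 have marked starts with no E2f4 peak.

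Among the 263 genes with a summit in all 4 libraries, the genes most like E2f3 in rank over the 4 lists were H2ac10, at 1 peak with the histone gene H3c8, Brd8 and Zfpl1, with mean absolute log2 rank differences of 0.76, 0.79 and 1.29. H2ac10, a replication-dependent histone gene, ranked 4, 4, 7 and 6 in WT replicates 1 and 2 and KO replicates 1 and 2. Brd8 encodes a bromodomain protein and shares its peak with the mitotic kinesin gene Kif20a, and it ranked 9, 3, 2 and 3. Zfpl1 shares its peak with Cdca5, which encodes the cohesion protein sororin. For E2f8 the nearest were Mdc1, a DNA damage mediator, with a difference of 0.26, the kinase gene Tesk2 with 0.30 and the centrosomal gene Cdk5rap2 with 0.34. The likeness is a description over 4 libraries.

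H3K4me2 marked the start of all 8 E2F genes in both genotypes, and no member differed by 1.5-fold or more between them. Within 5 kb of the start, the length covered ranged from 1642 bp at E2f6 to 6430 bp at E2f8 in WT, and from 1707 bp at E2f6 to 6876 bp at E2f4 in KO. A difference counted when the lengths differed at least 1.5-fold and the longer was 500 bp or more. By this measure 0 of 8 members were longer in KO, where 7.48% of all genes were, and 0 of 8 were shorter, where 3.73% were. The median over members was 4049 bp in WT and 3965 bp in KO, and 4 were longer and 4 shorter. Over the 16052 genes with the mark in a library, the median was 2833 bp in WT and 3013 bp in KO, and 60.3% were longer in KO. The 1637 genes called longer and the 817 called shorter all lay among these 16052, since a gene without the mark cannot be called. Each mark had 1 library per genotype, so no difference in length has a replicate check or a test.

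The member with the largest gain of H3K4me2 was E2f4, from 5686 to 6876 bp, where a gap upstream in WT was filled by 1 continuous region in KO. Within 1 and 2 kb of the E2f4 start the difference was 0 and 7 bp, so the gain lay farther upstream. The gene Exoc3l, 697 bp upstream of this end, shares the window. E2f3 went from 4285 to 4857 bp. E2f8 was shorter by the most, 6430 bp in WT and 5622 bp in KO, and E2f7 had the lowest ratio, 0.74, with 2352 bp in WT and 1748 bp in KO. E2f1, E2f2, E2f5 and E2f6 had ratios of 1.02, 0.94, 0.88 and 1.04. With another window or threshold the direction turned in at least 1 of 7 alternatives at E2f1, E2f2, E2f3, E2f5 and E2f7, but at neither E2f6 nor E2f8.

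H3K27ac passed 1.5-fold at more members than H3K4me2, and in both directions. The same held over all genes, with 1809 longer and 1646 shorter for H3K27ac beside 1637 and 817 for H3K4me2. E2f1 had 1704 bp in WT and 3262 bp in KO, a ratio of 1.91, and E2f6 had 464 bp and 1360 bp, a ratio of 2.93. These 2 of 8 passed 1.5-fold, where 8.27% of all genes were longer in KO. E2f4 was the 1 of 8 that was shorter by this measure, where 7.52% of all genes were shorter. It had 6543 bp in WT and 4280 bp in KO, a ratio of 0.65. A gene without the mark cannot be called. The 1809 genes called longer and the 1646 called shorter therefore all lay among the 13695 with the mark, as did all 8 members. The E2f4 call was lost with windows of 1, 2 or 10 kb, over the whole gene, at a −log10 q-value of 2 or more and with lists of equal length. Of the longer calls, E2f1 was lost with the 1 kb window and E2f6 over the whole gene. E2f8 had 7792 bp in WT and 5461 bp in KO, a ratio of 0.70. E2f7 and E2f3 had ratios of 1.31 and 1.14, and E2f2 and E2f5 had 1.01 and 0.96, and the direction at E2f3, E2f5 and E2f7 turned in some alternatives. The median over members was 2324 bp in WT and 3111 bp in KO, beside 2464 and 2434 bp over the 13695 genes with the mark in a library.

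The place of the H3K27ac differences differed by gene. At E2f1 the KO region at the start was 2801 bp long against 1530 bp in WT. At E2f6, H3K27ac lay inside the gene and ended 522 bp from the start in WT and 1395 bp from it in KO. At E2f4 the difference lay mainly upstream. There the WT region reached -4854 bp from the start and the KO region at the start reached -2692 bp. The bases between these limits lie inside the neighbouring gene Exoc3l (chr8:105289923-105296966). An internal WT region of 639 bp, within 5 kb of the start, also had no KO counterpart. Within 2 kb of the E2f4 start, KO was longer by 137 bp, the opposite direction to the 5 kb window. At E2f8 the WT region reached -2791 bp from the outer gene end, over Gm2788, and the KO region reached -460 bp.

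**Figure D3:**
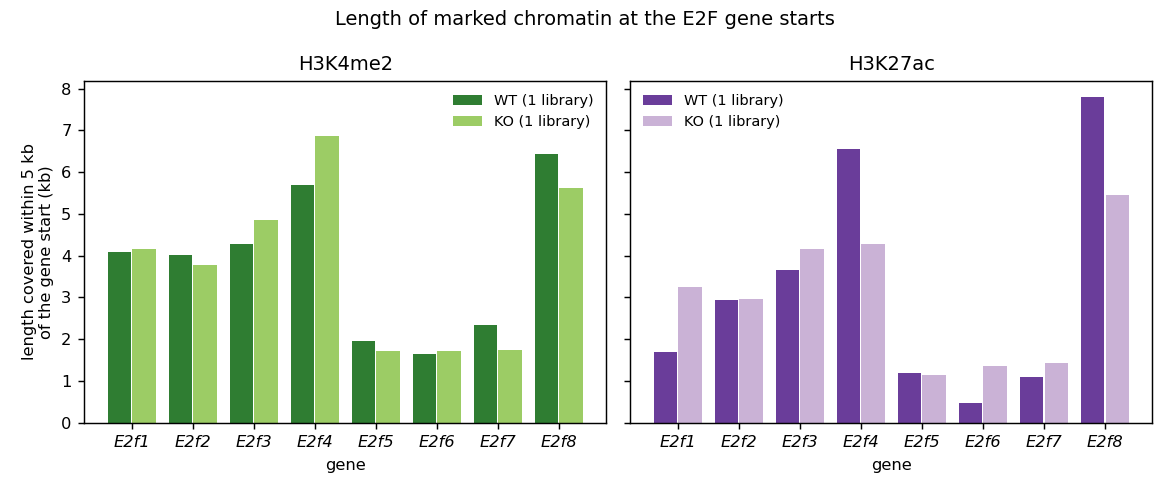
Length covered by H3K4me2 and H3K27ac within 5 kb of each E2F gene start. The vertical axis is in kb, and each bar is 1 library, so there are no error bars. H3K27ac is taller in KO at E2f1 and E2f6 and lower at E2f4 and E2f8, while the H3K4me2 bars of a gene stay within 1.5-fold of each other.

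**Figure D4:**
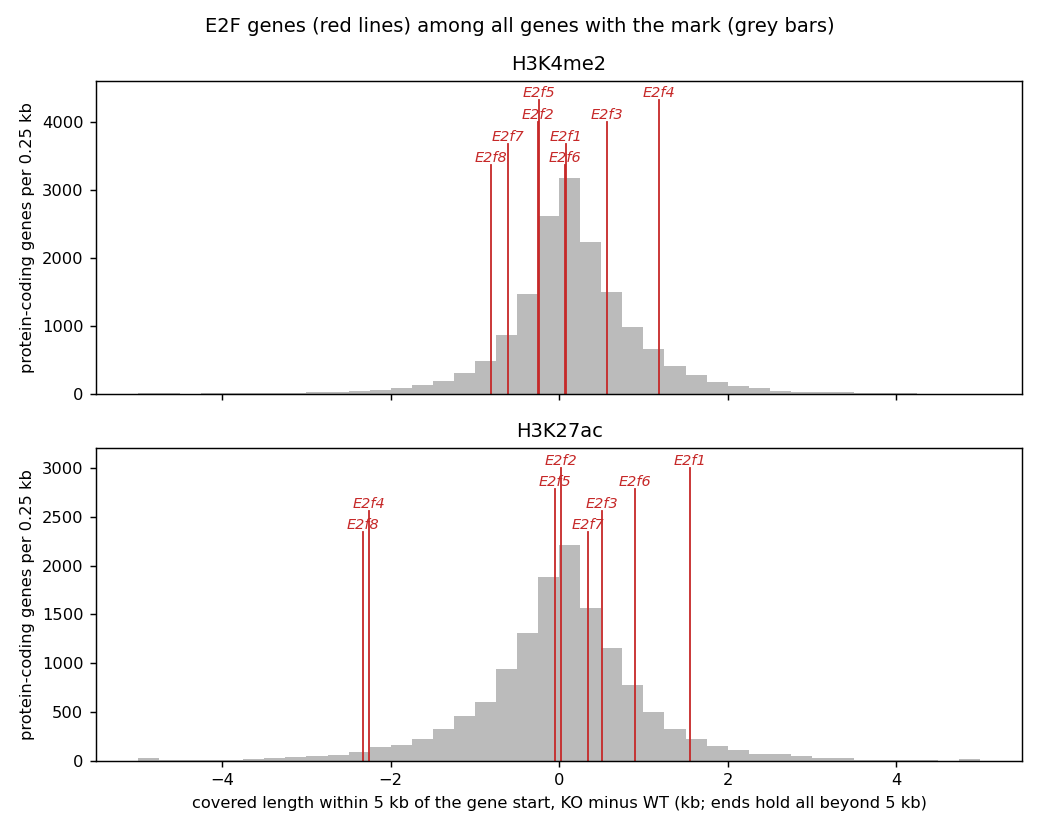
Differences in covered length, KO minus WT, in kb, for all protein-coding genes with the mark in a library (grey bars, number of genes) and for the E2F genes (red lines). The H3K4me2 lines run from -808 bp at E2f8 to 1190 bp at E2f4, and the H3K27ac lines from -2331 bp at E2f8 to 1558 bp at E2f1.

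The share of H3K4me2 that also carried H3K27ac, within 5 kb of the start, puts the 8 genes on a common scale. It moves with the H3K4me2 length as well, which at E2f7 was 2352 bp in WT and 1748 bp in KO. It was not recomputed under the alternative settings. The share was 41.8% in WT and 78.5% in KO at E2f1, 28.3% and 75.6% at E2f6, and 46.5% and 81.9% at E2f7. A rise at least as large was seen in 4.43%, 2.16% and 4.76% of all genes with 500 bp or more of H3K4me2 in both genotypes. E2f2 went from 59.0% to 78.5% and E2f5 from 60.2% to 65.8%. At E2f4 the share was 80.7% in WT and 62.2% in KO, and it was 85.2% and 80.1% at E2f3 and 100% and 97.1% at E2f8. Over the 14507 genes the median was 67.4% in WT and 66.3% in KO, and 42% of genes were higher in KO, against 5 of the 8 members.

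Over the length of a gene, start included, H3K4me2 covered 9552 bp of E2f2 in WT and 9675 bp in KO, and H3K27ac covered 8425 and 10239 bp. An internal H3K4me2 region of E2f2, chr4:136178081-136181726 in WT and chr4:136179226-136181962 in KO, spanned the window of its second RefSeq start, chr4:136180532-136180831, as did H3K27ac in both genotypes. This window had no E2f4 summit. H3K4me2 covered 7527 and 7007 bp of E2f3 in WT and KO, and H3K27ac covered 6869 and 5131 bp, with overlapping internal regions in all 4 histone lists at chr13:29944132-29945944, the WT H3K4me2 region. Inside E2f7, overlapping H3K27ac regions lay at chr10:110752653-110753471 in WT and chr10:110752514-110753705 in KO. The H3K4me2 regions called there, 152 bp long in WT and 879 bp in KO, did not overlap each other. At the far gene end, E2f4 had H3K4me2 of 2037 bp in WT and 1776 bp in KO, 91 bp from Elmo3, and E2f2, E2f3 and E2f8 had none in either genotype. Exon structure was not used here, so these positions were not assigned to exons or introns.

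Marks of other liver cells also differed between the libraries, and their part in these lengths was not tested. Summed over 5 lymphocyte markers, H3K4me2 covered 14964 bp in WT and 1704 bp in KO, with Cd8a at 0 in WT and all but Ptprc at 0 in KO. For 6 endothelial markers it covered 17770 and 28491 bp, with Vwf at 0 in WT, and H3K27ac covered 31592 and 25515 bp, with Vwf at 0 in both. For 6 macrophage markers H3K4me2 covered 16524 and 17345 bp, with Timd4 at 0 in WT, and H3K27ac 24530 and 21719 bp. For 5 stellate and fibroblast markers H3K4me2 covered 7629 and 12978 bp, and H3K27ac 15462 and 10029 bp, with Col1a1 at 0 in KO. For 5 cholangiocyte markers H3K4me2 covered 6007 and 5056 bp, with Krt7 and Krt19 at 0 in both genotypes, and H3K27ac 1864 and 0 bp. H3K27ac over the lymphocyte markers covered 2740 and 4019 bp, with 3 of 5 at 0 in WT and 4 of 5 at 0 in KO. Over the 8 hepatocyte markers, H3K4me2 covered 60792 and 58625 bp and H3K27ac 63550 and 68578 bp. A change in the cells present and a change within cells cannot be told apart in these bulk samples.

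Beyond the family itself, 35 genes for proteins that act with, on or against E2F proteins were examined in 6 lists. E2f4 was called in both WT libraries at 12 of them, against 4.25% of all genes. Of the 12, 10 had a summit in a KO library and 2 had none, beside 273 without one among the 930 genes called in both WT libraries. A summit in all 4 libraries was found at 5 of the 12, beside 263 of the 930. Counted over the 35, these 5 stand against 1.2% of all genes. No library had a summit at 16 of the 35, whereas over all 21887 genes only 2028 had a summit in any library. Among the dimerisation partners, Tfdp1, which pairs with E2f1 to E2f6, was called in 3 libraries at ranks 566, 337 and 329 in WT replicates 1 and 2 and KO replicate 2. Tfdp2 was not called. The lists held 1791 and 1058 peaks in WT replicates 1 and 2, and 287 and 683 in KO replicates 1 and 2. The same rank is therefore a different place in each list. Of the 3 pocket proteins, Rbl1, which encodes p107, was called in the same 3 libraries at ranks 395, 494 and 378, while Rb1 and Rbl2 were each called in 1 WT library.

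The MuvB complex joins E2f4 and the pocket proteins in the repressive DREAM complex, and its partners B-Myb, the product of Mybl2, and Foxm1 in activating ones. Of this list of 7 genes, 5 were called in both WT libraries, namely the MuvB genes Lin9, Lin54 and Rbbp4 and both partners. Foxm1 ranked 16, 31, 24 and 91 and Mybl2 153, 151, 139 and 133 in WT replicates 1 and 2 and KO replicates 1 and 2. For Mybl2, rank 153 was out of 1791 peaks and rank 139 out of 287. Lin9 was called in 3 libraries. Lin54, at ranks 460 and 395, and Rbbp4, at ranks 1735 and 759, were called in both WT but neither KO library, as was E2f5.

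Of 9 cyclins and kinases that act on the pocket proteins, Ccne1 and Ccna2 were called in both WT libraries. Ccne1, cyclin E1, was called in all 4 at ranks 421 of 1791, 440 of 1058, 201 of 287 and 186 of 683. Ccna2, cyclin A2, was called in 3. The cyclin D genes, Ccne2, Cdk2 and Cdk6 had no summit. None of the 9 partners of E2f6 was called in both WT libraries, where 4.25% of all genes were. Of these 9, 8 had no summit at all, which is near the share over all genes, since only 2028 of 21887 had a summit in any library. Of 5 genes for the degradation of E2F proteins, Fbxo5, an inhibitor of the anaphase-promoting complex, ranked 44, 133, 57 and 103, and Ccnf, cyclin F, ranked 866, 905, 214 and 674. Cdc20, an activator of that complex, was called in 3 libraries.

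**Figure D5:**
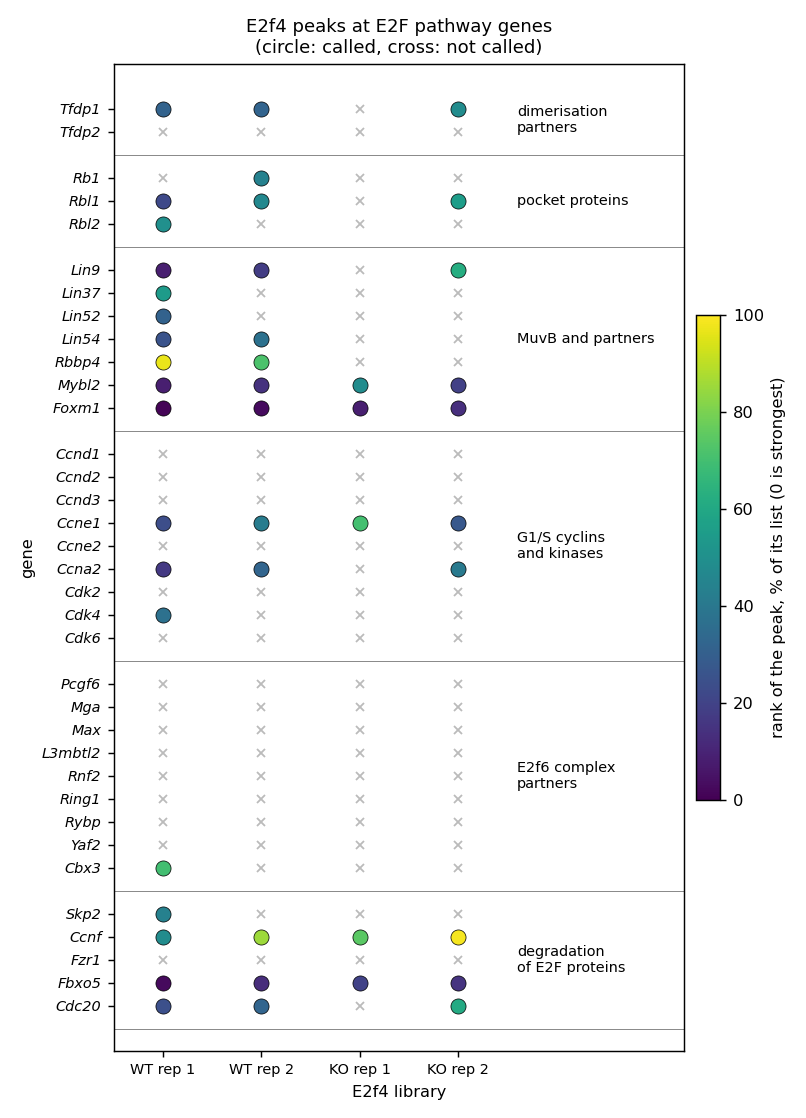
E2f4 peaks at 35 genes of the E2F pathway, by list. Columns are the 4 E2f4 libraries, circles are called peaks coloured by rank as a percent of the library's list, and crosses are genes not called. Foxm1, Mybl2, Ccne1, Ccnf and Fbxo5 have circles in all 4 columns, and the partners of E2f6 have 1 circle among them.

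Over the 35 pathway genes H3K4me2 at the start was longer by 1.5-fold or more in KO at 1 gene and shorter at 2, beside shares of 7.48% and 3.73% over all genes, with a median difference of -94 bp beside 127 bp over all genes with the mark. The gene longer in KO was Skp2, listed at 0 in WT with 1010 bp in KO, and the shorter genes were Ccna2, 2112 and 1393 bp, and Cdc20, 2601 and 1421 bp. H3K27ac was longer in KO at 11 of the 35 and shorter at 2, where 8.27% and 7.52% of all genes were, with a median difference of 489 bp beside 38 bp over all genes with the mark. These were 1 of 3 pocket proteins, 2 of 7 in the MuvB list (the partners Mybl2 and Foxm1), 2 of 9 cyclins and kinases, 2 of 9 partners of E2f6 and 4 of 5 degradation genes. Rbl1 had 2207 bp in WT and 4225 bp in KO, Ccne2 had 1861 and 4644 bp, and Ccnf had 3105 and 5131 bp. Foxm1 had 1525 and 2435 bp, and Pcgf6, a Polycomb partner of E2f6, had 3404 and 5188 bp. Skp2, with 340 and 524 bp, and Mybl2, with 0 and 625 bp, lay near the floor of 500 bp. The alternative settings were not run for the pathway genes. Those shorter in KO were Rbbp4, 6244 and 3310 bp, and Rnf2, a Polycomb ubiquitin ligase, 2471 and 1642 bp. The shares over all genes include genes without the mark in question, which cannot be called.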

How the data were processed

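E2f4, H3K4me2 and H3K27ac were profiled in liver that had been frozen, fixed in 1% formaldehyde for 20 min and taken to hepatocytes, per the labels' protocols. Groups and replicate numbers came from the sample titles. The submitters' processing notes name build mm10, MACS2 2.0.10.20131216, Bowtie2 2.2.3, HOMER and Picard without a role. Peaks were deposited 1 list per library, with no counts. Each deposited list gives a fold enrichment, a ratio for that peak, and −log10 p-values and −log10 q-values, used only to describe, rank or filter peaks within a list. The deposited summit offset placed E2f4 summits, and the deposited score was not used. The use of inputs in peak calling is not stated in the sources used. The lowest −log10 q-value was 1.33 to 1.78 in the E2f4 lists and 1.00 to 1.01 in the histone lists.

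Gene ends came from RefSeq GRCm38.p6. The start was the outer end given by the strand in the promoter table (17492 genes, all members but E2f4 and E2f5), otherwise the end with more H3K4me2 within 2000 bp (3238 genes), otherwise the lower coordinate (1157 genes). Where both were known, the marked end was the annotated start for 89.2% of 12631 genes. Summits inside a gene or within 1 kb of either end, and covered length within 5 kb of the start, were used. A gene's rank is that of its strongest peak. Motif letters were searched on both strands of 32851 promoters.

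The 8 genes, the pathway and marker lists, the motifs and the tests were chosen with earlier results of these data known. Named genes were the 8 members, Arid1a, pathway genes called in both WT libraries or with the largest length gain or loss past 1.5-fold in a list, and the 3 genes nearest in rank to E2f3 and E2f8. Other pathway genes were named after their values were seen. Replicate numbers share only a number, with a deviation correlation of 0.22 over 2028 genes. One lymphocyte marker was left out of its list and is not reported here. Alternatives were stricter thresholds, other windows and folds, lists of equal length and each E2f4 library left out. The summit and covered-length functions were tested on simulated data, and the motif search was not. Python 3.11.15, numpy 2.4.6 and pandas 2.3.3 were used.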

Additional observations from a re-analysis of the deposited data

How the results depend on the processing

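Under 14 alternative settings, the share of E2f4 libraries with a summit, WT minus KO, gave 112 values for single members. Of these values 96 were unchanged. The unchanged values include those of the replicate block, which pairs libraries by number and keeps each value by design. E2f4 and E2f6 had no summit, so stricter thresholds or leaving out a library could not change their values. E2f2, E2f5 and E2f7 had main values above 0, and none of them fell below 0 in any setting. The main value was 0 at E2f1, E2f3, E2f4, E2f6 and E2f8, so a reversal could not be scored there. At E2f1 the value ranged from -0.5 to 0.5, depending on the library left out. At a −log10 q-value of 5 or more, 0 members were called in both WT but neither KO library. At 10 or more, 2 members (E2f3 and E2f8) were called in both WT libraries, and 0 of these lacked a KO summit. With the 287 strongest peaks of each list, 1 member (E2f3) was called in both WT libraries, 2 (E2f3 and E2f8) in a KO library and 0 in WT only. Leaving out each E2f4 library in turn gave 4 to 6 members with a summit in the WT libraries left, 2 to 4 with a KO summit and 1 to 2 called in WT but not in KO. The highest WT count came without WT replicate 2 and the lowest KO count without KO replicate 2. With the replicate block, E2f5 had an exact sign-flip p of 0.5, the smallest that 2 pairs allow. The block enters the p-value only, so it cannot change a call.

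Of 56 recomputed H3K4me2 lengths, 46 kept both their direction and their side of 1.5-fold, as did 39 of 56 for H3K27ac. The direction turned in at least 1 of 7 settings at E2f1 (-83 to 93 bp), E2f2 (-597 to 489 bp), E2f3 (-515 to 572 bp), E2f5 (-320 to 24 bp) and E2f7 (-604 to 607 bp). H3K27ac turned likewise at E2f3 (-1237 to 511 bp), E2f5 (-49 to 1135 bp) and E2f7 (-446 to 711 bp). For H3K4me2 at a fold of 1.2, 1 member was longer (E2f4) and 1 shorter (E2f7). For H3K27ac, 1 member was longer with a 1 kb window (E2f6), in the gene body (E2f1) or at a fold of 2 (E2f6), and 4 at a −log10 q-value of 5 or more. H3K27ac was shorter at 0 members with windows of 1 or 10 kb, in the gene body, at a −log10 q-value of 2, with lists of equal length or at a fold of 2, and at 2 with a fold of 1.2 (E2f4 and E2f8). Within 2000 bp the shorter member was E2f8 in place of E2f4. The E2f4 difference reversed to 137 bp within 2000 bp of the start. E2f1 and E2f6 stayed longer in all 7 settings, by 328 to 2801 bp and 123 to 896 bp, and E2f8 stayed shorter, from -2853 to -540 bp. The causes of these changes were not tested. Depth is unknown, so it sets no limit that can be given here.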
